A study of Mus musculus with 22 samples.

Results

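The 4 CaMKII genes, Camk2a, Camk2b, Camk2d and Camk2g, were examined in the hnRNP A1 CLIPseq footprints of mouse spinal cord. CLIPseq crosslinks a protein to the RNA that it touches with ultraviolet light, immunoprecipitates the protein, and sequences the attached RNA; a footprint is a stretch of the genome from which such RNA came. Every footprint of the 10 hnRNP A1 immunoprecipitations that overlapped the annotated GRCm38 span of 1 of these genes by at least 1 nt was taken. That gave 153 of 136207 footprints, in 4 of 55450 annotated genes. Camk2b held 83 of them, Camk2g 44, Camk2d 20 and Camk2a 6.

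CaMKII is a kinase that calcium-loaded calmodulin switches on, and in neurons it is known for its role at the synapse. Each subunit has a kinase domain, a regulatory segment that binds calmodulin, a linker of variable length, and an association domain through which many subunits form 1 holoenzyme. The α and β subunits (Camk2a, Camk2b) are the abundant forms of neurons, while γ and δ (Camk2g, Camk2d) are made in many tissues. The exons of the linker are alternatively spliced, and hnRNP A1 is an RNA-binding protein that regulates the choice of exons.

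The mice were female C57Bl/6 animals, bought at 10 weeks of age, and each gave 1 spinal cord and 1 list of footprints. Naïve mice (n = 3) were not immunized and carry no clinical score. Mice with experimental autoimmune encephalomyelitis (EAE), a model of multiple sclerosis, were immunized with MOG(35-55), a peptide of myelin oligodendrocyte glycoprotein, in complete Freund's adjuvant, and were given 100 ng of pertussis toxin on days 0 and 1. The age at immunization is 12 weeks in the labels of the samples and 8 weeks in the description of the design. Cords were taken 15 days after onset from mice with mild EAE (n = 3, scores 1.0 to 1.5) and with severe EAE (n = 4, scores 2.5 to 3.0). The comparison asked where hnRNP A1 sits on RNA in healthy and in inflamed cord.

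The lists were of very unequal length. Naïve mice had 17119 to 17494 footprints and mice with mild EAE 9751 to 24433, whereas the severe group had 2670, 209, 673 and 31870, the last in mouse 4. The lists hold no number of reads behind a footprint, so the depth of each footprint is unknown, and the read totals per library that the study gives were not used here. A gene with no footprint in a short list is therefore only not listed there, and the group differences are given with severe EAE mouse 4 and without it. The study describes this mouse as an outlier of its group, also flagged by its reproducibility analysis. It reports that the animal had been in remission shortly before the end of the experiment. Neuronal markers were footprinted over 3202 to 4301 nt in the naïve mice (5 to 6 of 6 genes), 1131 to 2582 nt in mild EAE (5 to 6 of 6), 5463 nt in severe EAE mouse 4 and 0 to 22 nt in the other severe mice. The members differed: in mild EAE Syt1 and Rbfox3 lay wholly below the naïve mice, whereas Snap25, Nefl, Nefm and Stmn2 overlapped them. Microglial and macrophage markers summed to 172 to 447 nt (1 to 2 of 6 genes) in the naïve mice, where C1qa, Csf1r, Cd68 and Lyz2 were at 0, and 1008 to 1964 nt (5 of 6) in mild EAE. C1qa and Csf1r lay wholly above the naïve mice in mild EAE, Cd68 and Lyz2 were each listed in 2 of 3 mice, Ctss overlapped, and Cx3cr1 had 172 to 309 nt in the naïve mice against 0 to 173 nt. Of the motor neuron markers Prph was listed in 5 mice and Chat, Slc18a3 and Isl1 in none, and the T cell and skeletal muscle markers were at 0 in every mouse. These values are footprints of hnRNP A1 and not amounts of RNA. In these bulk samples fewer cells of a type, less RNA per cell, less binding and a shorter list cannot be told apart.

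The alternative linker exons that carried a footprint are shown first, since they are the segments by which the isoforms of a CaMKII gene differ. All sequences are from the RefSeq GRCm38 assembly, in coding orientation, and capitals mark the bases that were footprinted in at least 1 mouse. The Camk2b exons lie on the minus strand at chr11:5987057-5987131, chr11:5982501-5982572 and chr11:5981070-5981114. The Camk2d exons lie on the plus strand at chr3:126805857-126805916 and chr3:126808208-126808249, and the Camk2g exon on the minus strand at chr14:20747819-20747851.
Camk2b 75-nt linker exon: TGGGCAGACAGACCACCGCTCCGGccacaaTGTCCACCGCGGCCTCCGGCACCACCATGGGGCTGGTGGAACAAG
Camk2b 72-nt linker exon: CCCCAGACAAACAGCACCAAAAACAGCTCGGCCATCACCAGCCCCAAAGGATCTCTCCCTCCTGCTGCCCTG
Camk2b 45-nt linker exon: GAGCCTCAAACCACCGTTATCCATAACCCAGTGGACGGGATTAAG
Camk2d 60-nt linker exon: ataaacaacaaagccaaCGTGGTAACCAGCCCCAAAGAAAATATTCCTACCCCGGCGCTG
Camk2d 42-nt linker exon: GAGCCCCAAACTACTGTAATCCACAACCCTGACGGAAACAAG
Camk2g 33-nt linker exon: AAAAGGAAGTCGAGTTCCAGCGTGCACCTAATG
In the 75-nt exon of Camk2b the first 24 bases came from mild EAE mouse 1 and the last 45 bases from naïve mice, with 6 bases between them in no mouse. None of these 6 exons holds UAG, the core of the motif that hnRNP A1 prefers.

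The linker also has a 49-nt exon, the last before the association domain that no full-length transcript skips, and it was footprinted whole in Camk2b (3 mice), Camk2d (3 mice), Camk2g (2 mice) and Camk2a (severe EAE mouse 4). It is shown for the 3 genes in which more than 1 mouse covered it, to compare the same position. The exons lie at chr11:5979673-5979721 (minus strand), chr3:126810639-126810687 (plus strand) and chr14:20742705-20742753 (minus strand), and capitals again mark footprinted bases.
Camk2b 49-nt exon: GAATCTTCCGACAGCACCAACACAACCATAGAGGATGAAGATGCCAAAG
Camk2d 49-nt exon: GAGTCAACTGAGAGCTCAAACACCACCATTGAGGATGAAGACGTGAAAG
Camk2g 49-nt exon: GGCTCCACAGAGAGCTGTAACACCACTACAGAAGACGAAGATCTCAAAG
Camk2b and Camk2d share 75.5% of these bases, Camk2d and Camk2g 71.4%, and Camk2b and Camk2g 67.3%. Among coding exons of 8 lengths that the genes share, pairs that matched at over 60% of bases had an identity of 69.5% to 90.7% in the kinase and regulatory segment, 73.7% to 82.9% in the association domain and 67.3% to 85.7% in this linker exon, Camk2a included.

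The remaining sequences are those covered in the most mice, and a stretch of a linker intron of Camk2g that was covered in 2 mice with EAE. Elsewhere in that intron naïve mouse 2 also had a footprint, and naïve mouse 1 had footprints in a noncoding exon that lies within it. The last coding exon of Camk2b (142 nt of it, chr11:5972309-5972450, minus strand) encodes part of the association domain, and the twelfth coding exon (chr11:5988950-5989038, minus strand, with 5 bases of the next intron) encodes part of the regulatory segment. In these, capitals mark the bases covered in all 6 mice that shared the stretch. The stretch of the Camk2g intron (chr14:20754372-20754474, minus strand) was common to mild EAE mouse 3 and severe EAE mouse 4, and its capitals mark TAG, which is UAG in RNA.
Camk2b last coding exon: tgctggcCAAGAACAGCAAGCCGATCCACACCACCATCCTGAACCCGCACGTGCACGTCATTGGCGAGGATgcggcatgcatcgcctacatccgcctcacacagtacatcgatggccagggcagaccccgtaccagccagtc
Camk2b twelfth coding exon: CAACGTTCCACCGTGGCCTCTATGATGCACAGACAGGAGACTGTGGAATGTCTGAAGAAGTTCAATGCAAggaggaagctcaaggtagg
Camk2g linker intron: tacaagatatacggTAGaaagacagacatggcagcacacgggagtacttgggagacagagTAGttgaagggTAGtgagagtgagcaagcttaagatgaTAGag
The intron stretch holds 4 UAG in 103 nt, the last coding exon of Camk2b holds none, and the stretch of the twelfth holds 1, within the 5 intron bases at its end.

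Camk2b (chr11:5969644-6066362, minus strand) was the member with the highest coverage per exon length in the naïve mice, and it was footprinted in 7 of the 10 mice. Covered nt were 925, 1099 and 988 in the naïve mice, 622, 872 and 1007 in mild EAE, 0 in severe EAE mice 1, 2 and 3, and 2765 in severe EAE mouse 4. The mild and naïve mice overlapped, and the severe group held both the lowest values and the highest. Naïve mice averaged 1004 ± 88.1 nt (SD, n = 3), the mild group 834 ± 195 nt (n = 3) and the severe group 691 ± 1383 nt (n = 4). In the mice with mild EAE the mean lay 170.3 nt below that of the naïve mice (p = 0.3 by exact permutation, and 1 after adjustment over 9195 genes).

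Within annotated exons, and without scaling to the length of the lists, Camk2b coverage in mild EAE did not overlap that of the naïve mice. Per 1000 nt of exon it was 78.9, 91.9 and 87.2 nt in the naïve mice, 51.2, 49.9 and 74.6 nt in mild EAE, 0 in severe EAE mice 1, 2 and 3, and 121 nt in severe EAE mouse 4. All 3 mice with mild EAE were lower, with a mean difference of -250.7 nt of exon and p = 0.1 in the exact permutation test, the smallest value that 3 against 3 mice can give, and an adjusted p of 1. Outside the exons the difference had the other sign, 80.3 nt higher in mild EAE (exact p = 0.4). The lists of mild EAE mice 1 and 2 were shorter, at 1548566 and 1156473 nt against 2055065 to 2219869 nt in the naïve mice. Per 1000000 footprint nt, whole-gene Camk2b coverage overlapped, with 417, 535 and 452 in the naïve mice and 402, 754 and 337 in mild EAE. Among the neuronal markers Syt1 and Rbfox3 were also wholly lower in mild EAE and the other 4 overlapped, and their part in the exon coverage was not tested.

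Camk2g (chr14:20734875-20794088, minus strand) was footprinted in 3 naïve mice, 2 with mild EAE and 2 with severe EAE. The naïve mice had 280, 374 and 355 covered nt, mild EAE 0, 106 and 1106 nt, and severe EAE 0, 0, 147 and 1905 nt. All 3 naïve values lay inside the range of each EAE group. The means were 336 ± 49.7 nt (SD, n = 3), 404 ± 610 nt (n = 3) and 513 ± 931 nt (n = 4), and the difference from naïve mice was within the spread for either EAE group (p = 1 for both by exact permutation, adjusted p = 1). Pooled over the mice, 53.9% of the nt in naïve mice lay outside exons, and 40.3% in all EAE mice. The single mice differed widely, with 23 of 280, 365 of 374 and 156 of 355 nt in the naïve mice. In EAE it was 0 of 106 and 394 of 1106 nt in mild mice 2 and 3, and 0 of 147 and 921 of 1905 nt in severe mice 3 and 4.

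Camk2d (chr3:126596302-126846326, plus strand), with the longest span, was sparsely covered. Covered nt were 313, 162 and 0 in the naïve mice, 122, 197 and 533 in mild EAE, and 0, 0, 0 and 420 in severe EAE. The groups overlapped, with means of 158 ± 157 nt (SD, n = 3), 284 ± 219 nt (n = 3) and 105 ± 210 nt (n = 4). Counted in exons alone, mild EAE was higher in 3 of 3 mice. Naïve mice had 5.25, 0 and 0 nt per 1000 nt of exon, and mild EAE 5.42, 8.76 and 11.7 nt, so the nearest values of the groups lay close together. The mean difference was 154.7 nt of exon (exact permutation p = 0.1, the smallest possible here, adjusted p = 1). Outside exons lay 195 of the 313 nt and all 162 nt of naïve mice 1 and 2, and naïve mouse 3 had no footprint. In mild EAE it was 0 of 122, 0 of 197 and 270 of 533 nt, so only mouse 3 had such nt. Pooled over the mice this makes 75.2% in naïve mice and 31.7% in mild EAE, which is not a difference between replicates. Both intron footprints of the naïve mice lay in the 85499-nt intron after the second coding exon, and 2 Camk2d intron footprints also lay in the annotated noncoding genes Gm15551 and Gm43010.

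Camk2a (chr18:60925618-60988152, plus strand) was footprinted in each naïve mouse, over 134, 114 and 150 nt. It was listed in none of the mice with mild EAE and in severe EAE only in mouse 4, over 280 nt. Naïve and mild mice did not overlap, a mean difference of -132.7 nt, with an exact permutation p = 0.1 and an adjusted p = 1. The positions were different in every mouse: naïve mice 1 and 2 had 1 footprint each in the 3′ UTR (chr18:60985331-60985464 and chr18:60987343-60987456), naïve mouse 3 had parts of kinase exons 10 and 11, and severe EAE mouse 4 had an intron of the linker and the shared 49-nt linker exon with the intron before it. No stretch of Camk2a was covered in 2 mice.

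In exon nt alone the EAE mice did not overlap the naïve mice in Camk2a, since severe EAE mouse 4 had 49 nt and the other 6 EAE mice had 0. The difference was -125.7 nt (lower in 7 of 7 EAE mice, exact permutation p = 0.00833, the smallest that 3 against 7 can give). The adjusted p over 9195 genes was 1. Against severe EAE alone it was -120.4 nt (exact p = 0.0286, also the smallest possible, adjusted p = 1). Each of these values rests on 1 or 2 footprints per naïve mouse.

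**Figure D1:**
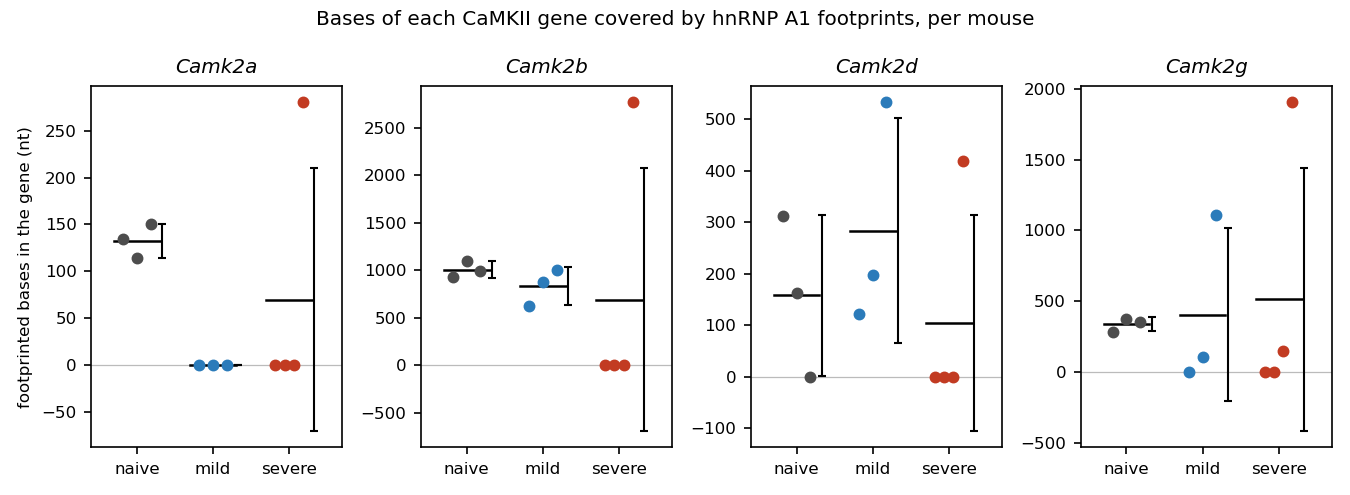
Covered nt of the 4 CaMKII genes in each of the 10 mice (points), with the group mean and SD (bar and whiskers, which reach below 0 where the spread is wide). Camk2b is at 925 to 1099 nt in the naïve mice, and severe EAE mouse 4 is the highest point of the severe group in each gene, while severe EAE mice 1 and 2 are at 0 throughout.

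All 4 genes were footprinted in at least 2 mice and so were tested. In all 3 naïve mice 3 of the 4 were listed (Camk2a, Camk2b and Camk2g), against 9.35% of 21951 protein-coding genes. Only 9999 of those coding genes had a footprint in any mouse, and the members were chosen with earlier results of these data known. The contrast is therefore only a description. Of the 4, none passed the adjusted threshold in any comparison, nor did any of the 9195 genes footprinted in at least 2 mice (exact permutation tests with Benjamini-Hochberg adjustment; unadjusted p under 0.05 in 416 genes for EAE, 0 for mild EAE and 232 for severe EAE). Groups that did not overlap were counted as a plain description. In mild EAE 1 of the 4, Camk2a, lay wholly below the naïve mice, as did 3.85% of all genes tested, and none lay wholly above, as did 3.84%. With all EAE mice together or the severe mice alone no member lay wholly below (1.46% and 3.46% of genes) or above (0.0109% in both). In exon nt, 2 of 4 lay wholly below in mild EAE (Camk2a and Camk2b; 1.05% of genes) and 1 wholly above (Camk2d; 3.53%). For all EAE mice and for severe EAE 1 of 4, Camk2a, lay wholly below in exon nt (0.359% and 1.51%). These exon nt were not scaled to the length of the lists. A gene at 0 in any naïve mouse cannot lie wholly below, and the shares are over all genes tested, such genes included. Camk2a, Camk2b and Camk2g were listed in every naïve mouse, so the shares wholly below are not a like-for-like background for them. The share among genes listed in every naïve mouse was not counted.

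With all EAE mice, the differences from naïve mice were -92.7 nt for Camk2a (p = 0.3), -251.7 nt for Camk2b (p = 0.708), 23.4 nt for Camk2d (p = 0.875) and 130.0 nt for Camk2g (p = 0.825), all by the exact permutation test, against a median of -20.2 nt over all genes tested. In severe EAE the same exact test gave -62.7 nt (p = 0.571), -312.8 nt (p = 0.743), -53.3 nt (p = 0.657) and 176.7 nt (p = 1), against a median of -40 nt. Severe EAE mouse 4 decided these values. Without it the severe differences became -132.7, -1004, -158.3 and -287.3 nt for Camk2a, Camk2b, Camk2d and Camk2g, with exact p = 0.1, 0.1, 0.4 and 0.1. With all other EAE mice they became -132.7 nt (exact p = 0.0119, adjusted p = 0.338), -587.2 nt (exact p = 0.0833), -16.3 nt (exact p = 0.952) and -109.8 nt (exact p = 0.798). The 3 remaining lists hold 209 to 2670 footprints, and in them severity and the length of the list cannot be told apart.

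Scaled to the length of the lists, the CaMKII genes took 683 to 851 nt of each 1000000 footprint nt in the naïve mice. The values were 480, 1016 and 886 in mild EAE, so the groups overlapped. Severe EAE mouse 4 stood at 1297, mice 1 and 2 at 0, and mouse 3 at 1934, the last from a single footprint of 147 nt in a list of 75994 nt.

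Compared per length, the order of the genes in the naïve mice was Camk2b, Camk2g, Camk2a and Camk2d. Camk2b had 86.0 ± 6.60 nt per 1000 nt of exon (SD, n = 3), Camk2g 24.2 ± 20.3, Camk2a 17.8 ± 2.42 and Camk2d 1.75 ± 3.03. Camk2b stood clear of Camk2g in every naïve mouse (78.9 to 91.9 against 1.41 to 40.2), whereas Camk2g and Camk2a overlapped, and Camk2a (15.3 to 20.1) lay above Camk2d (0 to 5.25). In severe EAE mouse 4 the values were 154 for Camk2g, 121 for Camk2b, 17.4 for Camk2d and 6.56 for Camk2a.

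The footprints were mostly coding. By their midpoints 108 of 153 (70.6%) lay in coding sequence, 31 (20.3%) in introns, 12 in UTRs and 2 in a noncoding exon of Camk2g. Over all 117327 footprints in protein-coding genes 65.7% were coding and 26.8% intronic. Of the 108 coding footprints 107 (99.1%) had an end exactly at an annotated exon end, against 81.4% of coding footprints in all genes, and 41 covered exactly 1 exon from end to end. In 68 cases, footprints of 1 mouse met both ends of an annotated intron: 42 in Camk2b, 15 in Camk2g, 10 in Camk2d and 1 in Camk2a. A spliced contig leaves such a trace, but introns that exclude each other were each counted. In Camk2b of severe EAE mouse 4, the introns from exon 15 to 17, 15 to 18 and 17 to 18 were all among them. The 68 cases are therefore not a count of splice junctions. The lists do not say which footprints came from the same contig, so a count of footprints is not a count of independent binding events.

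**Figure D2:**
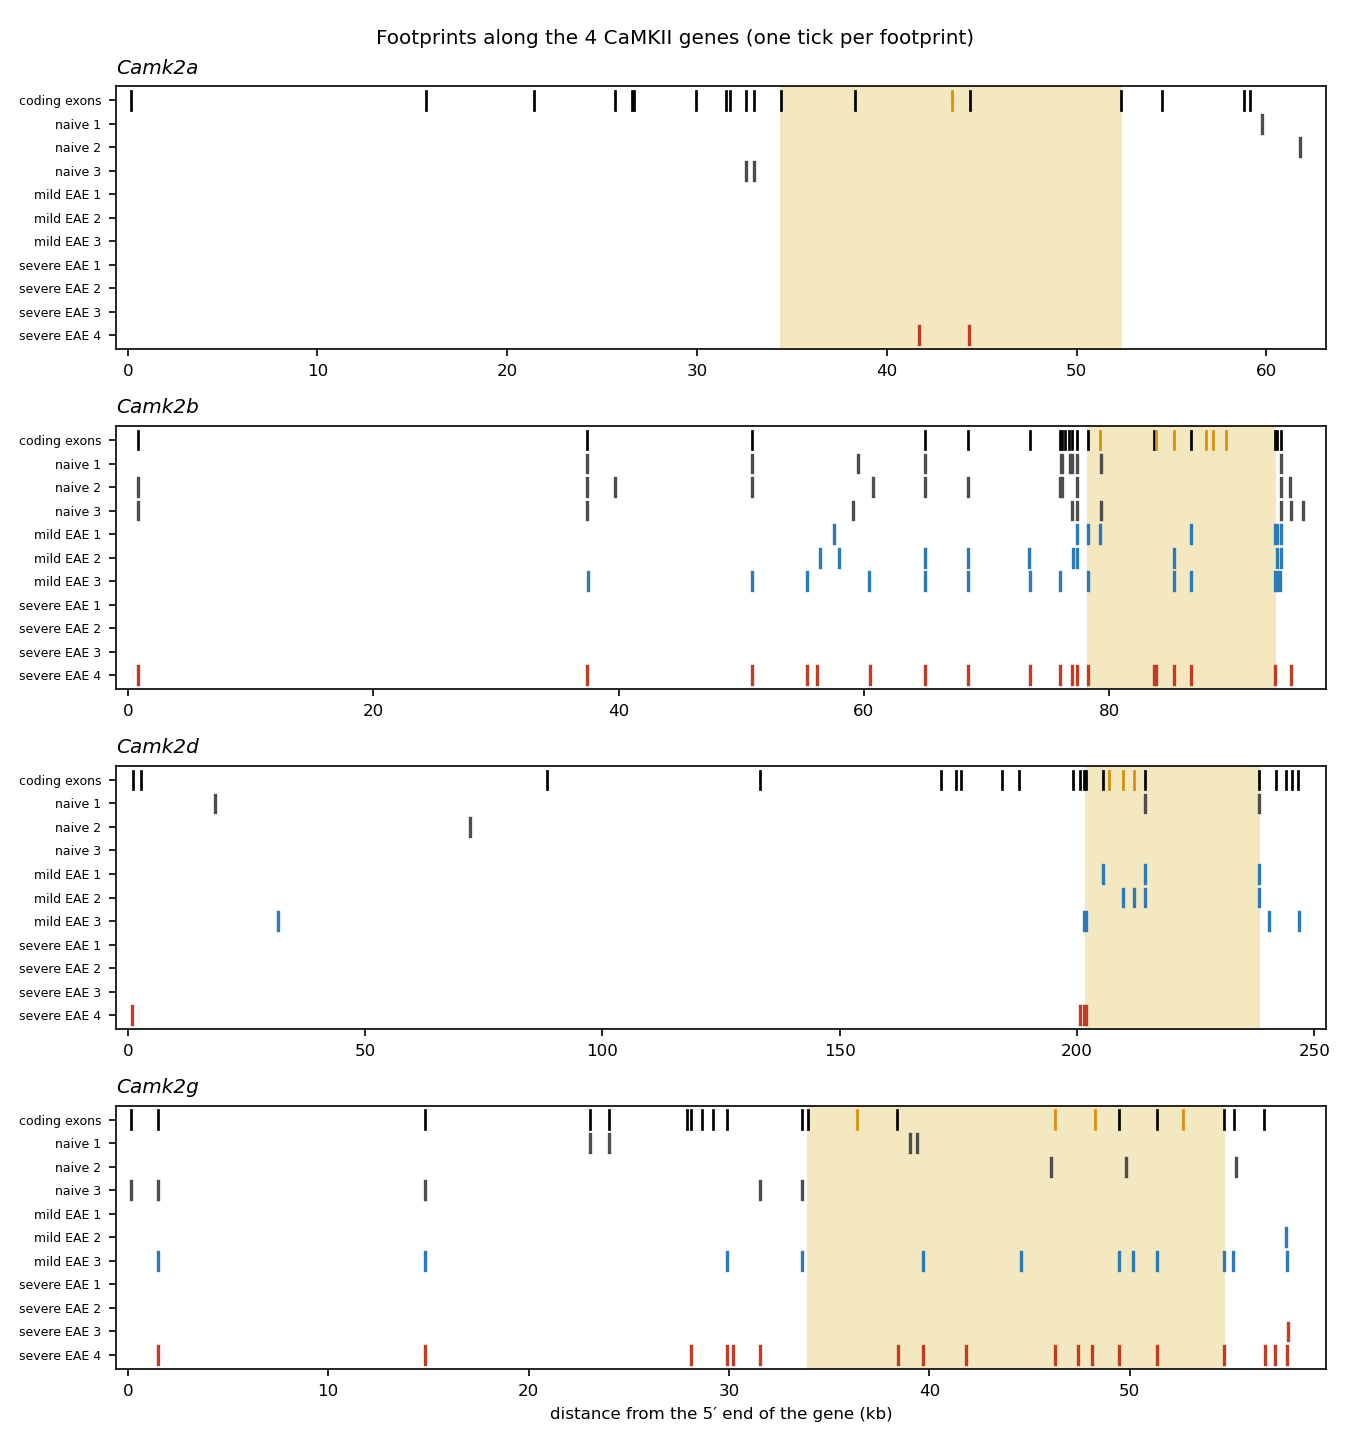
Footprints of each mouse (rows) along the 4 genes, drawn to scale in nt from the gene start in the direction of transcription, with the exons above and the linker window shaded. The footprints of Camk2b fall on most of its exons and in its 14057-nt intron, while the long introns of Camk2d are nearly empty.

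The linker window lies between the shared 43-nt exon at the end of the kinase and regulatory segment and the shared 76-nt exon at the start of the association domain. It held 38 of the 153 footprints. The naïve mice had 7 (4, 2 and 1), the mild group 16 (4, 4 and 8) and the severe group 15, all in mouse 4. The mice with 8 and 15, mild EAE mouse 3 and severe EAE mouse 4, also had the longest lists. Of the 38, 17 were in Camk2g, 11 in Camk2b, 8 in Camk2d and 2 in Camk2a. Only 10 lay on an alternative linker exon, 7 of them in Camk2b. The other 28 lay 44 to 4655 nt from the nearest such exon (median 1511 nt), 3 of them within 200 nt. In mild EAE mouse 3 and severe EAE mouse 4, the Camk2d footprint of the 43-nt exon entered the window by 1 and 29 nt only. The windows are 15212 nt (Camk2b) to 36293 nt (Camk2d) long.

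On the alternative linker exons of Camk2b, naïve mice 1, 2 and 3 had 41, 0 and 45 nt, mild EAE mice 24, 37 and 20 nt, and the severe group 0, 0, 0 and 117 nt. The totals overlapped, but the exons behind them differed. Both naïve footprints were on coding exon 14, the 75-nt exon, and shared 41 nt of it. In EAE only mild EAE mouse 1 touched that exon, at its other end, whereas mild EAE mice 2 and 3 and severe EAE mouse 4 covered 37, 20 and all 45 nt of exon 17, which no naïve mouse had. Severe EAE mouse 4 also covered exon 16 whole. Exons 19, 20 and 21 (114, 129 and 129 nt), which few transcripts contain, were in no mouse.

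The shared linker exons of Camk2b had 0 nt in each naïve mouse, 49, 0 and 49 nt in mild EAE, 89 nt in severe EAE mouse 4 and 0 in the other severe mice. In mild EAE mice 1 and 3 and severe EAE mouse 4, footprints met both ends of the intron from exon 18 to exon 22, which skips exons 19 to 21 and is annotated in 7 of 10 transcripts. Mild EAE mouse 3 and severe EAE mouse 4 also met the intron from exon 17 to 18 (6 of 10 transcripts), and mild EAE mouse 1 that from exon 13 to 14 (4 of 10). No naïve mouse met an intron end of the Camk2b linker on both sides. Which exons were joined in the RNA cannot be read from the lists themselves.

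In Camk2d, mild EAE mouse 2 was the only mouse with nt on alternative linker exons, 43 nt of the 60-nt exon 16 and all 42 nt of exon 17. Its footprints met the introns from exon 16 to 17, 17 to 18 and 18 to 19, and also that from exon 16 to 18, which skips exon 17. Mild EAE mouse 1 instead met the intron from exon 14 to 18, without the exons between, which is annotated in 3 of 11 transcripts. The intron from exon 18 to 19 was met in naïve mouse 1 and in mild EAE mice 1 and 2. Upstream of it, mice 1 and 2 of the mild group met different introns. In Camk2g, only severe EAE mouse 4 had an alternative exon, the 33-nt exon 15, while mild EAE mouse 3 and severe EAE mouse 4 both covered exons 17, 18 and 20 and met the intron from exon 18 to 20, which skips exon 19 and is annotated in 5 of 9 transcripts. The alternative exon of Camk2a, of 33 nt, was in no mouse.

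**Figure D3:**
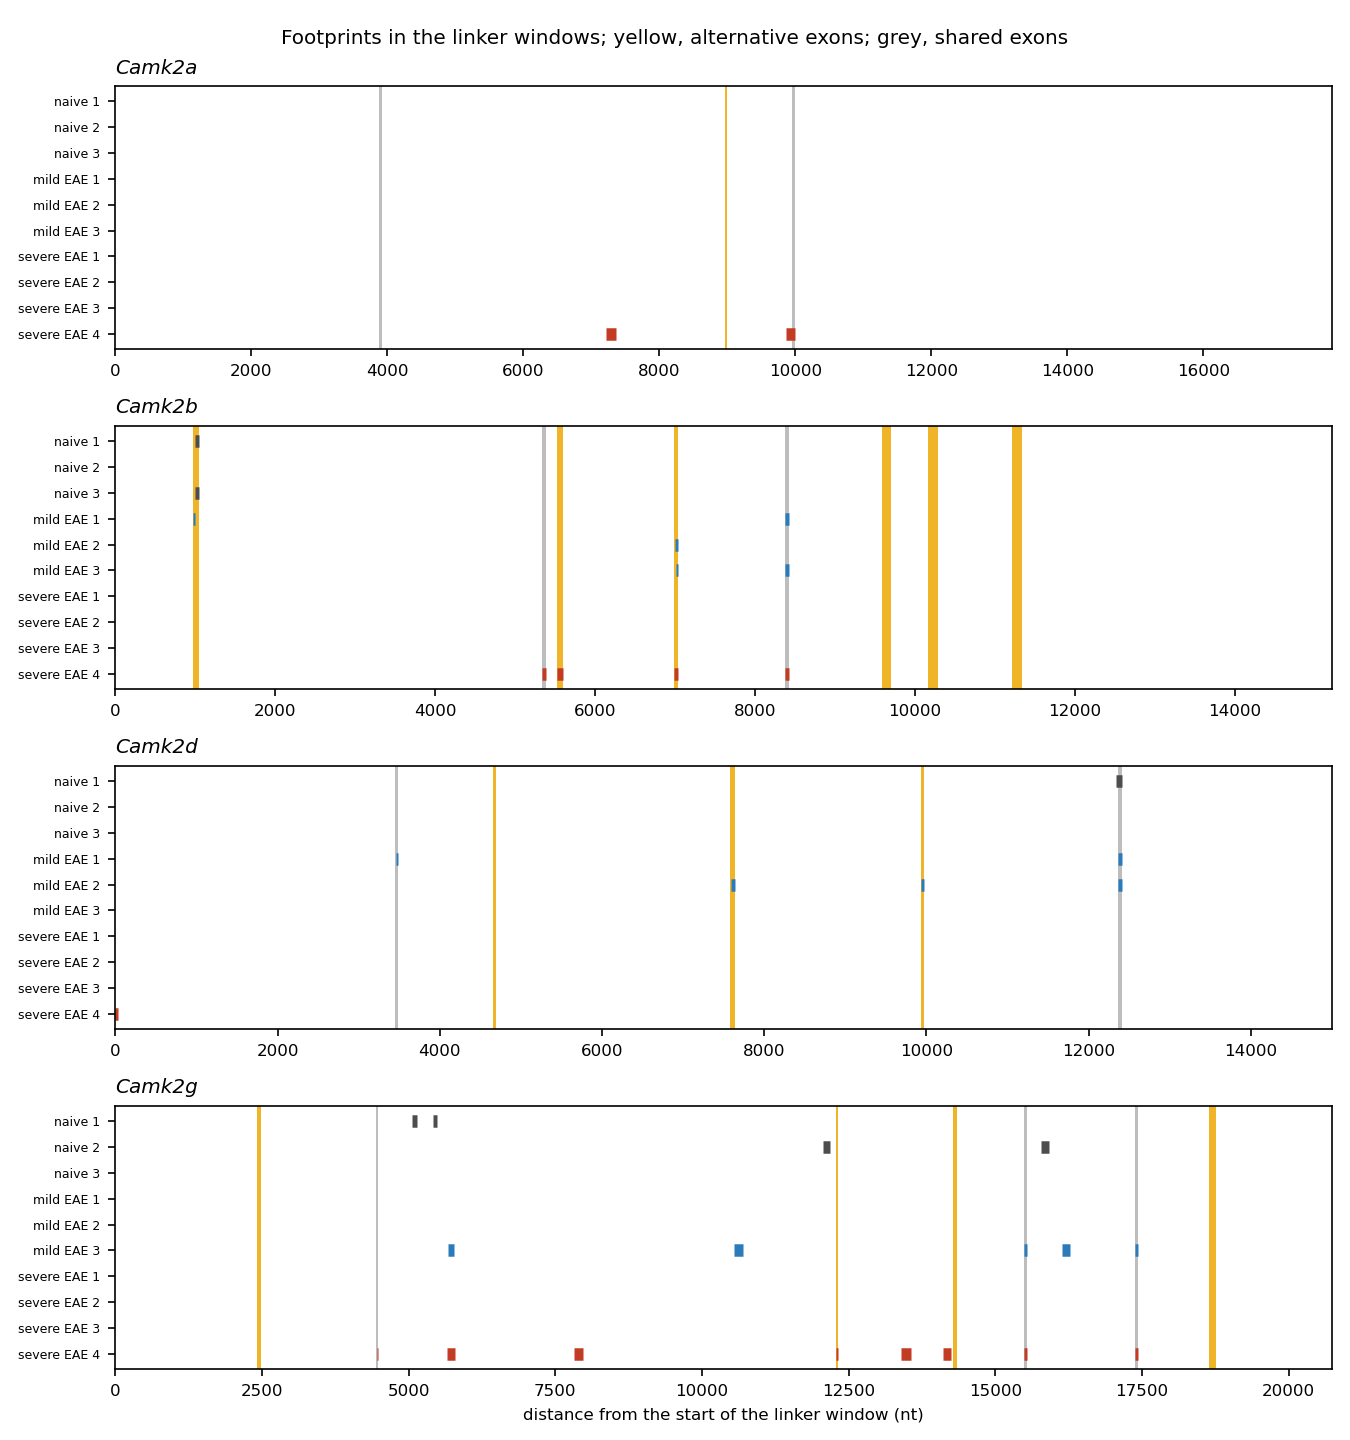
Footprints of each mouse (rows) in the linker window of the 4 genes, to scale in nt from the end of the shared 43-nt exon (Camk2d is drawn to 15000 nt, beyond which it has no footprint in the window), with alternative and shared linker exons marked. Naïve mice touch only exon 14 among the Camk2b linker exons, and mice with EAE exons 14 to 18.

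Exon by exon, 29 coding exons of the 4 genes were footprinted in at least 2 mice, 17 of them in Camk2b. Of the 29, 12 (41.4%) were in at least 2 EAE mice and no naïve mouse, against 32.6% of such exons over all genes, and 1 (3.45%) was in at least 2 naïve mice and no EAE mouse, against 4.96%. Both shares are near the background of the unequal groups, 3 naïve mice against 7. Severe EAE mice 1, 2 and 3 covered none of these coding exons, so the EAE side is the mild group and severe EAE mouse 4. The exons of the first kind were 6, 13, 17, 18, 22 and 23 in Camk2b, 12 and 13 in Camk2d, and 10, 17, 18 and 20 in Camk2g. Those of Camk2d and Camk2g were each covered only in mild EAE mouse 3 and severe EAE mouse 4. These mice had the longest lists, of 24433 and 31870 footprints. The exon of the second kind was exon 8 of Camk2b, a kinase exon covered over its 84 nt in naïve mice 1 and 2.

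Coverage of Camk2b was also summed over the exons of each protein segment. The kinase and regulatory exons had 537, 542 and 318 covered nt in the naïve mice, 127, 254 and 370 nt in mild EAE and 664 nt in severe EAE mouse 4. The association exons had 142, 146 and 107 nt in the naïve mice, 267, 164 and 242 nt in mild EAE and 76 nt in severe EAE mouse 4. Mild EAE lay above all naïve mice in the association exons, while in the kinase exons the groups overlapped with naïve mice mostly higher. Every naïve mouse covered the last of the 3 association exons and none the 2 before it, whereas exon 23 was covered in all 3 mice with mild EAE. These segments were not tested, and how often segments of other genes lay wholly above was not counted. For the exon nt of whole genes it was 3.53% of genes in mild EAE.

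**Figure D4:**
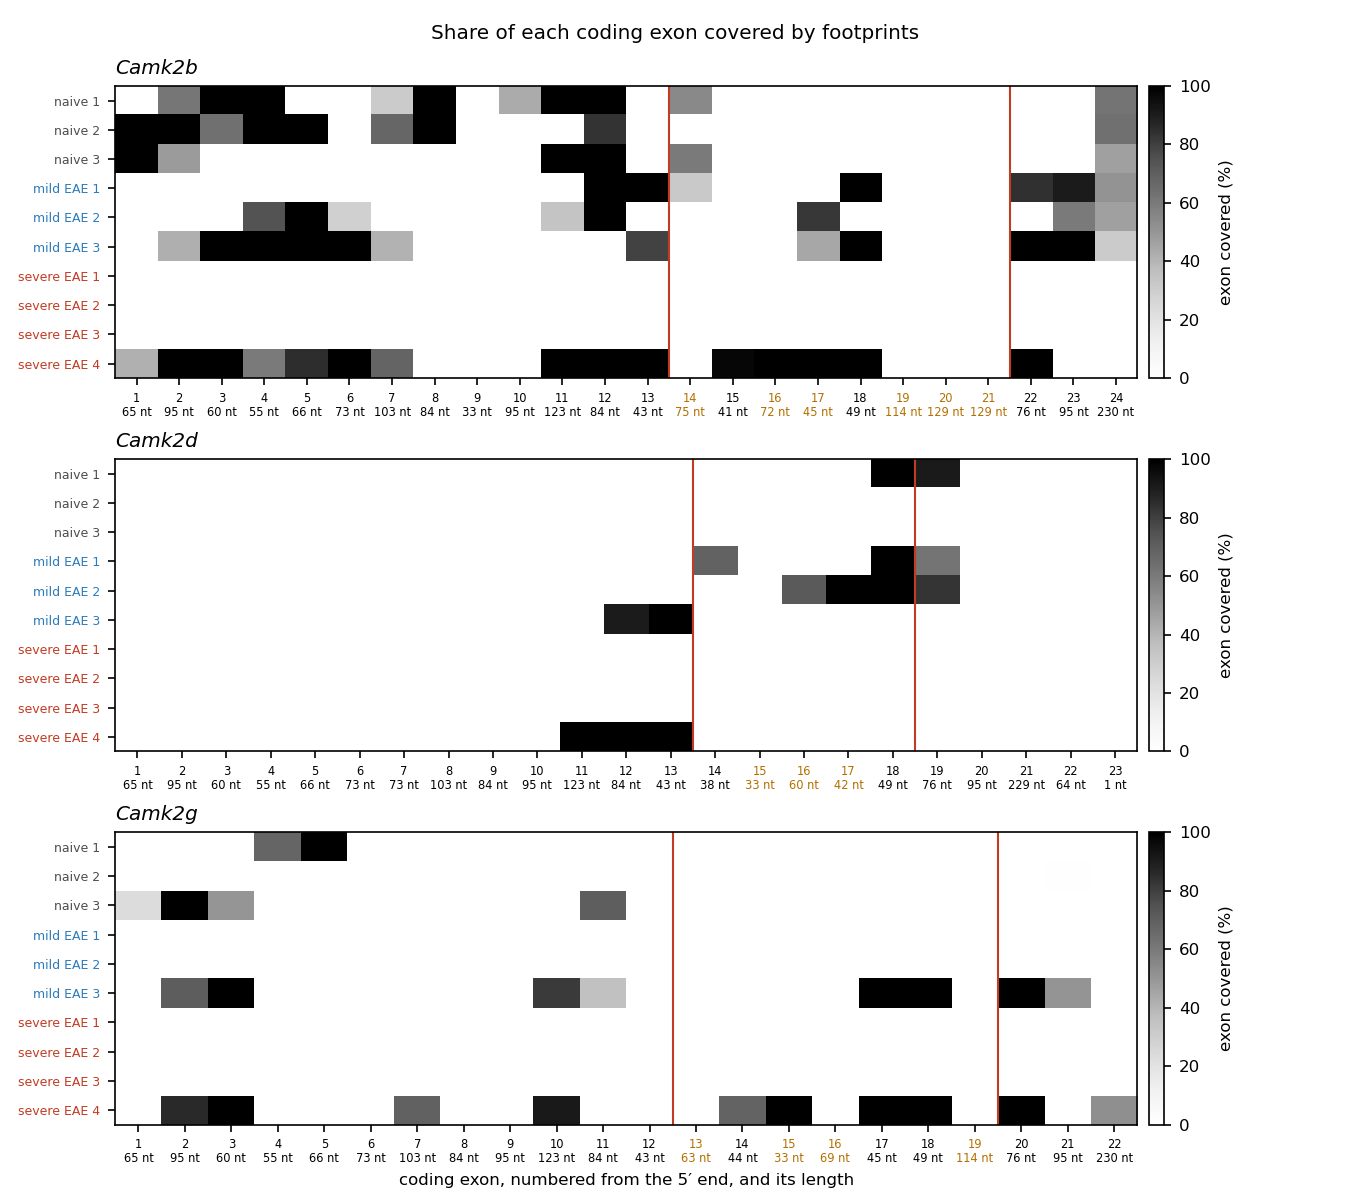
Share of each coding exon covered in each mouse (rows; exons in order of the transcript, coloured from 0 to 100%), with the segments of the protein marked. In Camk2b exons 12 and 24 are covered in 6 mice each, exons 6, 13, 17, 18, 22 and 23 in 3 mice with EAE and no naïve mouse, and exons 9 and 19 to 21 in no mouse.

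Stretches covered in at least 2 mice of a group were found mainly in Camk2b. The naïve mice shared 11 stretches of 878 nt in all, every one in Camk2b, 10 coding and 1 in the 3′ UTR. Mice with mild EAE shared 13 stretches of 774 nt, 10 in Camk2b, 2 in Camk2d and 1 in Camk2g, and 7 of them overlapped no footprint of a naïve mouse. Conversely, the naïve stretches in coding exons 1, 7, 8 and 14 and in the 3′ UTR of Camk2b overlapped no footprint of a mouse with mild EAE. The share of such stretches over all genes was not counted. The severe group shared 1 stretch, 147 nt of the 3′ UTR of Camk2g, and 2 of its 4 mice had no CaMKII footprint. Over all 10 mice together 36 stretches were shared, 22 in Camk2b, 10 in Camk2g, 4 in Camk2d and none in Camk2a.

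The most widely shared stretches lay in the Camk2b exons printed above. Exon 24 was covered in the 3 naïve and 3 mild EAE mice and exon 12 in the 3 naïve mice, mild EAE mice 1 and 2 and severe EAE mouse 4. In the 3′ UTR of Camk2g, mild EAE mice 2 and 3 and severe EAE mice 3 and 4 all covered chr14:20736249-20736292 (44 nt), and no naïve mouse did. The only CaMKII footprint of the 3 short severe lists lay over this stretch. It was picked from these data, with 7 EAE mice against 3 naïve mice. How often stretches of other genes were in 4 EAE mice and no naïve mouse was not counted. A stretch of the 3′ UTR of Camk2b (chr11:5971525-5971666) was covered in naïve mice 2 and 3 and in severe EAE mouse 4.

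The intron footprints concentrated in 1 place. The Camk2b intron at chr11:6001393-6015449, of 14057 nt, held 11 of the 31, and each of the 7 mice with a Camk2b footprint had at least 1 there. No naïve mouse shared a stretch of it with another mouse. In mild EAE mouse 3 and in severe EAE mouse 4 a pair of footprints in this intron had identical sequence, 163 nt and 418 nt long, 5108 nt apart. Repeat masking covered 100% of the shorter pair and most of the longer, and a contig of such sequence cannot be placed at 1 copy rather than the other. Over all 4 genes 10 of 31 intron footprints and 2 of 12 UTR footprints were over 50% repeat-masked, and no coding footprint was.

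UAG, counted on the coding strand, was rare in the coding footprints, with 2.13 per 1000 nt against 9.85 in windows of equal length 200 nt to either side, of which 14.7% was exonic. It was found in 13 of 108 coding footprints (12.0%) and in 44.0% of their windows. A UAG in frame is a stop codon, and coding sequence and introns differ in composition, so these are not like for like. In the intron footprints UAG stood at 13.2 per 1000 nt against 12.5 in the windows, and was present in 24 of 31 (77.4%) against 80.6%. In the 14057-nt intron of Camk2b it was 9.57 per 1000 nt of footprint against 12.2 over the whole intron. AGGU showed 2.80 per 1000 nt in all footprints and 4.81 in the windows. Neither motif was denser in the footprints than beside them over all regions together.

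The genes most like each member were sought by Pearson's r of covered nt per 1000000 footprint nt over the 10 mice, among 3655 genes footprinted in at least 5 mice; all points share the length of the list, and r is a description. For Camk2b they were Cep63, a centrosomal protein (r = 0.985), Aff4, a scaffold of transcription elongation (r = 0.975), and Rere, a transcriptional corepressor (r = 0.961). For Camk2d they were Ccdc88c (r = 0.952), Dido1 (r = 0.937) and Iws1, a transcription elongation factor (r = 0.933). For Camk2g the first places went to Zc3h11a, listed under 2 annotation entries, and Gm38394 (r = 0.998, and 0.965 without severe EAE mouse 3, whose high value rests on 1 footprint). Among the members, Camk2b and Camk2d had r = 0.678, and Camk2b and Camk2g r = -0.319, which became 0.504 without severe EAE mouse 3. Camk2a was footprinted in too few mice to be ranked.

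Of 32 other genes of the calcium and calmodulin pathway, 26 were footprinted in at least 2 mice, 17 in all naïve mice and 4 (Camk1g, Pnck, Actn2 and Pln) in none. None passed the adjusted threshold in the exact permutation tests. In mild EAE 2 of the 26 lay wholly below the naïve mice (3.85% of all genes tested) and none above (3.84%). In severe EAE 1 of the 26 lay wholly below (3.46%), and with all EAE mice none did (1.46%).

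Camk1d, another calmodulin-dependent kinase, had 464, 829 and 672 nt in the naïve mice against 170, 0 and 525 nt in mild EAE and 0, 0, 0 and 546 nt in severe EAE (difference of -477.7 nt for all EAE mice, exact permutation p = 0.025, adjusted p = 0.675). The CaMKII inhibitors overlapped between all groups. Camk2n1 was at 0, 362 and 398 nt in the naïve mice, 0, 0 and 241 nt in mild EAE and 0, 0, 0 and 574 nt in severe EAE, and Camk2n2 at 135, 118 and 475 nt, 0, 0 and 309 nt, and 164, 0, 0 and 108 nt.

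Among partners and substrates, Gria1, an AMPA receptor subunit that CaMKII phosphorylates, had 1100, 780 and 702 nt in the naïve mice, 149, 292 and 426 nt in mild EAE, and 0, 0, 0 and 1025 nt in severe EAE (all EAE mice, -590.4 nt, exact permutation p = 0.0333, adjusted p = 0.675). Ryr2, a calcium release channel, had 2157, 1202 and 1878 nt in the naïve mice against 886, 707 and 998 nt in mild EAE, with no overlap (exact permutation p = 0.1, adjusted p = 1). Shank3, a scaffold of the postsynaptic density, had 141, 568 and 578 nt in the naïve mice and 0, 0, 0 and 137 nt in severe EAE, the only gene of the list to lie wholly below in that group (-394.8 nt, exact permutation p = 0.0286, adjusted p = 0.883). Grin1, the obligatory NMDA receptor subunit, overlapped between groups, with 732 to 1298 nt in the naïve mice and 819 to 1330 nt in mild EAE. Gria1 and Ryr2 were lower in each mouse with mild EAE than in any naïve mouse, as were the neuronal markers Syt1 and Rbfox3 but not the other 4, and the part of those markers in this was not tested. None of these values was scaled to the length of the lists.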

How the data were processed

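hnRNP A1 CLIPseq footprints of 10 mouse spinal cords were analysed, and each mouse was 1 replicate; the 10 inputs and 2 IgG pools were not analysed here. The deposited files hold other values than counts: per the labels and the methods, the authors built contigs from each library's reads (rnaSPAdes), mapped them onto GRCm38 by spliced alignment (minimap2 2.17; the submitters' processing notes also name bcl2fastq 2.19.0.316), subtracted sites found in input or IgG, and merged overlaps. Only the start and end of each footprint remain, with no strand, score or read count, so the depth and precision per footprint are unknown. A footprint lost by subtraction, by assembly or by low depth looks the same as none.

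Spans and exons came from GENCODE mouse release 21 on GRCm38, and sequences from RefSeq GRCm38. Covered nt per gene and mouse were computed with bedtools 2.31.1 and Python 3.11.15 (numpy 2.4.6, scipy 1.17.1). Mice were grouped by treatment and clinical score as labelled. Differences of group means were tested by two-sided exact permutation tests, with Benjamini-Hochberg adjustment over all 9195 genes footprinted in at least 2 mice, threshold 0.05; shared stretches (at least 2 nt in at least 2 mice of a group) were counted. Named were the 4 members, for each footprinted in at least 5 mice the 3 genes of highest correlation, and a calcium and calmodulin list; linker exons, motifs and markers followed written lists. Members and lists were chosen with earlier results of these data known. The alternatives covered unit, scale, footprint length, span, exon or intron nt, gene filter, each mouse left out and the replicate block. The scripts were tested on simulated data.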

Additional observations from a re-analysis of the deposited data

Results flagged for a closer look

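Severe EAE mouse 4 stood far above the other 3 severe mice in covered nt of each CaMKII gene: 280 nt in Camk2a, 2765 nt in Camk2b and 420 nt in Camk2d, where the other 3 had 0, and 1905 nt in Camk2g, where they had 0, 0 and 147 nt. In each case the gap to the nearest mouse exceeded Dixon's 95% critical value for 4 samples. The 4 values come from 1 list of 31870 footprints and are not independent. Only the severe group, with 4 mice, is large enough for this comparison. Where the other 3 mice are at 0, any value above 0 in mouse 4 is flagged. For Camk2a, Camk2b and Camk2d the flag was therefore fixed in advance. The usual rate of about 1 flag in 20 such groups does not hold for values tied at 0.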

How the results depend on the processing

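No adjusted p was under 0.05 in any of the 224 tests, of which 12 are the reported ones (smallest adjusted p 0.338, for Camk2a in EAE without severe EAE mouse 4; 5 tests with p under 0.05). Of 212 alternatives 184 kept the direction. The others, as EAE minus naïve unless named, were as follows. On the log2(nt + 1) scale Camk2d was -0.59 and Camk2g -3.39 with all EAE mice, and Camk2g -2.77 in mild and -3.86 in severe EAE. Outside exons, Camk2a was 33, Camk2b 146 and Camk2d -76.3 nt with all EAE mice, 0, 80.3 and -29 nt in mild EAE (Camk2g -50 nt), and 57.8 nt (Camk2a) and 195.5 nt (Camk2b) in severe EAE, where Camk2d in exons was 58.4 nt. Per 1000000 footprint nt, mild EAE gave 29.9 for Camk2b and -2.82 for Camk2g, and by number of footprints Camk2b was 0. Over the EAE mice with longer lists, chosen after seeing the data, Camk2b was 312.5 nt.

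Leaving out each mouse in turn gave, with all EAE mice, -132.7 to -84 nt for Camk2a, -587.2 to -126.3 nt for Camk2b, -55.8 to 100.7 nt for Camk2d and -109.8 to 207.7 nt for Camk2g. In mild EAE the ranges were -142 to -124, -257 to -64.5, 1.17 to 206.7 and -283.3 to 269.7 nt, and in severe EAE -132.7 to -39.3, -1004 to -82.3, -158.3 to 24 and -287.3 to 347.7 nt, in the same order. Camk2d with all EAE mice turned without mild EAE mouse 3 (-35.2 nt), severe EAE mouse 4 (-16.3 nt) or naïve mouse 3 (-55.8 nt), and in severe EAE without naïve mouse 1 (24 nt). Camk2g turned without severe EAE mouse 4 (-109.8 nt with all EAE mice, -287.3 nt in severe EAE) or mild EAE mouse 3 (-283.3 nt in mild EAE). Shared stretches numbered 3, 2 and 0 in the naïve, mild and severe groups when 3 mice were required, and 5 to 7, 5 to 7 and 0 to 1 with a mouse left out.

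Mice of equal title number did not deviate together (correlations of -0.03, 0.14 and 0.02), so the numbers pair nothing. With the replicate block, over 3 shared numbers for all EAE mice, Camk2d was -117.7 nt and Camk2g -336.3 nt, and over 2 numbers for severe EAE Camk2g was -327 nt; mild EAE and naïve mice share too few numbers for a block. The causes of these changes were not tested. The lists give no reads behind a footprint. The study describes the sequencing depth of its CLIPseq samples as similar, and its read totals were not used here. The study's separate peak calling on aligned reads also found the fewest enriched clusters in the 3 severe mice with short lists. From the lists alone, an RNA without binding in these mice cannot be told from a footprint lost in processing.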
